A study of Mus musculus with 18 samples.

Results

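IP14D-101 is a mouse induced pluripotent stem (iPS) cell line, reprogrammed from somatic cells, and it was compared here with ESC2, a mouse embryonic stem (ES) cell line derived from an embryo. The members were the 3 arrays whose titles name IP14D-101 and the 3 whose titles name ESC2, which makes 6 of the 18 arrays. Total RNA of each culture was hybridised to an Affymetrix expression array, and 34945 probe sets with a single gene symbol gave 18193 genes. IP14D-101 carried the strain label B6 x 129S2 F1 and ESC2 the label B6 x D2 F1, so cell type, strain and line change together and cannot be told apart. Each is 1 line, and both were grown with LIF on MEF feeder cells stopped with mitomycin C, so fibroblast RNA may be present in either. The medium held fetal serum or a serum replacement, without a statement of which line had which. The design text speaks of biological replicates, but no label ties the arrays of a line to separate cultures, so p-values measure only the spread between these arrays. The other 12 arrays came from the ES line R1 (129X1/SvJ x 129S1 F1) and the iPS lines IP14D-1, IP20D-3 and IP36D-3 (B6 x D2 F1), with 3 arrays each.

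Values are log2 intensities, with the median gene of an array near 4.9. Means are given with the SD over n = 3 arrays, and differences are IP14D-101 minus ESC2 with limma's standard error. Within IP14D-101 the third array stood somewhat apart, with an array weight of 0.29 against 2.20 and 0.767 for the other two, and arrays of this line correlated at r of 0.9935 to 0.9973 across genes. The ESC2 arrays correlated at 0.9976 to 0.9981. The 3' to 5' ratio of the beta-actin control probe sets, a measure of RNA and labelling quality, was 1.14 ± 0.028 in IP14D-101 and 1.53 ± 0.043 in ESC2. The 18S control signal was 37.8 to 46.5 in IP14D-101 and 203 to 230 in ESC2. Both controls move with every difference below, and their part in the results was not tested.

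Mouse ES and iPS cells grown with LIF model the naive epiblast of the blastocyst, and LIF acts through STAT3 on transcription factors such as Klf4 and Tfcp2l1. In the blastocyst, FGF and ERK signalling divides the inner cell mass into epiblast, which keeps Nanog, and primitive endoderm, which turns on Gata6, Gata4, Sox17 and Sox7. Primitive endoderm then gives visceral endoderm, an absorptive epithelium that takes up maternal nutrients through cubilin, and parietal endoderm, which secretes a thick basement membrane of laminin and collagen IV. After implantation the epiblast passes to a primed state marked by Fgf5, Otx2 and Pou3f1.

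A gene was called where limma gave an adjusted p under 0.05 (Benjamini-Hochberg, over all genes) and the lines differed by at least 1 in log2. This called 8.73% of the 18193 genes, 849 of them (4.67%) higher and 739 (4.06%) lower in IP14D-101. The size of most differences was modest, with 62 rises and 81 falls of at least 4-fold and 5 rises and 8 falls of at least 8-fold. Near background, 197 of the fallen genes had a mean under 5 in IP14D-101, and 155 of the risen genes had one under 5 in ESC2. The 3 arrays of one line did not overlap the 3 of the other in 62.9% of all genes. Set against all 6 lines, IP14D-101 had the highest mean in 62.1% of the rises and ESC2 the lowest in 73.9%, while over all genes with a positive difference these shares were 36% and 40.4%. Of the falls, IP14D-101 had the lowest mean in 52.5% and ESC2 the highest in 65.4%, against 29.3% and 34.9% of all genes with a negative difference. A call requires a difference of at least 1 between these same lines, which by itself raises the shares among called genes. The balance of rises and falls depends on scaling: the median difference of all genes was 0.15, and centring each line on it, an alternative added after seeing the data, gave 579 higher and 1029 lower.

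**Figure D1:**
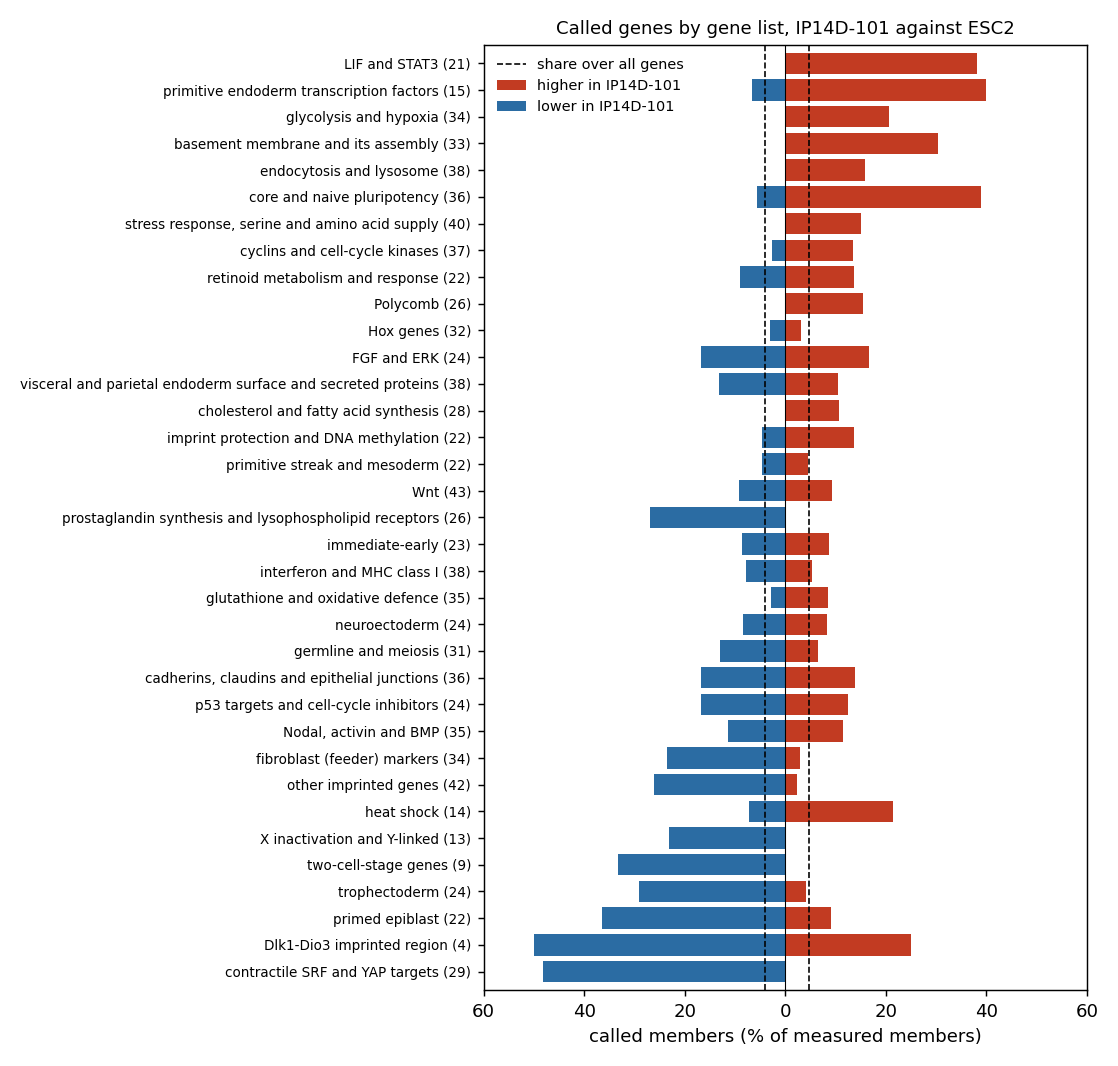
Share of measured members of each gene list that were called higher (red, to the right) or lower (blue, to the left) in IP14D-101 against ESC2, in percent, with the number of measured members after each name; lists run from the highest median difference at the top to the lowest, and dashed lines mark 4.67% and 4.06%, the shares over all genes. LIF and STAT3, primitive endoderm and pluripotency lists reach to the right, and contractile, primed epiblast and trophectoderm lists to the left.

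The largest rises included genes of the primitive endoderm and its derivatives. Of 15 measured transcription factors and receptors of the primitive endoderm list, 6 were higher in IP14D-101 and 1, Otx2, was lower, with a median difference of 0.66 against 0.15 over all genes. Gata6, the factor that starts the lineage, read 7.33, 7.27 and 7.42 in IP14D-101, against 3.82, 3.64 and 3.83 in ESC2. Gata4, a zinc-finger factor of the same family, read 6.84, 6.59 and 6.95 in IP14D-101 and 4.13, 4.26 and 4.10 in ESC2. Arrays of the lines did not overlap, a condition for naming both genes among the largest rises that 62.9% of all genes met. All ESC2 values of both genes lay under the array median. The differences were 3.58 ± 0.18 (adjusted p = 5.04e-11) and 2.63 ± 0.11 (adjusted p = 6.50e-12). Sox17 and Sox7, HMG-box factors downstream in the same lineage, differed by 2.11 ± 0.15 and 2.34 ± 0.18, and Foxq1 by 1.78 ± 0.12. Pdgfra, the PDGF receptor that marks primitive endoderm, reached only 5.46 ± 0.15 in IP14D-101 and was 3.85 ± 0.13 in ESC2, a difference of 1.6 ± 0.11. With an offset of 32 added before log2, which damps dim probe sets, Pdgfra and Foxq1 came to 0.71 and 0.98 and lost their calls. Foxa2, a factor of visceral and definitive endoderm, was 4.18 ± 0.13 in IP14D-101 and 3.52 ± 0.18 in ESC2 and was not called.

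Cubilin (Cubn), the endocytic receptor of the visceral endoderm, had the largest difference among the genes the naming rule admits. It read 9.66, 9.43 and 9.59 in IP14D-101 and 3.86, 4.37 and 4.30 in ESC2, 41.9-fold apart (adjusted p = 1.67e-13). The serglycin gene Srgn, a proteoglycan core protein, read 9.15, 9.19 and 9.07 in IP14D-101 and 3.79, 4.04 and 3.82 in ESC2, a difference of 5.25 ± 0.15 (adjusted p = 1.43e-13). Both genes were in the upper range of the array in every IP14D-101 sample and under its median in every ESC2 sample. Amnionless (Amn), the membrane partner that carries cubilin to the cell surface, differed by 1.57 ± 0.13, and Dab2, the clathrin adaptor of the same uptake route, by 2.90 ± 0.11 with its 3 other probe sets in the same direction. Lrp2 (megalin), the co-receptor of cubilin, did not share the rise, at 8.42 ± 0.05 in IP14D-101 and 8.64 ± 0.03 in ESC2 (adjusted p = 0.0911). In the wider list of visceral and parietal endoderm surface and secreted proteins, 4 of 38 were higher and 5 lower, with a median of 0.15. The 4 rises were Cubn, Srgn, Dab2 and Amn, and the falls were the follistatin gene Fst (-2.87 ± 0.17), Apoc2 (-2.04 ± 0.19) and the keratins Krt8, Krt18 and Krt19. Afp, the secreted protein of mature visceral endoderm, was 3.94 ± 0.22 in IP14D-101 and 3.66 ± 0.18 in ESC2, and the thyroxine carrier Ttr was 5.37 ± 0.19 in IP14D-101 and 5.25 ± 0.06 in ESC2, neither past the test.

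Basement membrane genes followed, with 10 of 33 measured members higher, 0 lower and a median of 0.50. Lama1, the laminin alpha chain that parietal endoderm secretes, read 9.35, 9.31 and 9.38 in IP14D-101 and 6.40, 6.33 and 6.22 in ESC2 (difference 3.03 ± 0.07, adjusted p = 2.31e-15). The gamma chain Lamc1, which joins alpha and beta chains in the laminin trimer, differed by 1.5, and Lama5, another alpha chain, by 1.11. The beta chain Lamb1 was 10.36 ± 0.01 in IP14D-101 and 10.42 ± 0.07 in ESC2 and was not called (adjusted p = 0.588). Col4a1 and Col4a2, the 2 chains of the common collagen IV trimer, differed by 2.17 ± 0.08 and 2.56 ± 0.18. The perlecan gene Hspg2 stood at 9.75 ± 0.14 in IP14D-101 and 8.22 ± 0.30 in ESC2. The enzymes and chaperone that collagen chains need before secretion also rose: the prolyl hydroxylases P4ha1 and P4ha2 by 1.41 and 1.27, the lysyl hydroxylase Plod1 by 1.68 and the collagen chaperone Serpinh1 by 1.04. Plod1 fell under the threshold (0.96) when all its probe sets were averaged. Sparc, a matrix protein that parietal endoderm makes in quantity, was 10.34 ± 0.05 in IP14D-101 and 10.09 ± 0.01 in ESC2 and was not called.

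Collagen IV chain genes are known to sit head to head and share a promoter region. The RefSeq windows from 250 bases before to 50 after each start (GRCm38.p6) are shown for this pair because both chains rose. Col4a1 lies at chr8:11312777-11313076 on the minus strand and Col4a2 at chr8:11312555-11312854 on the plus strand. Capitals mark the 78 bases that both windows contain, read on opposite strands.
Col4a1: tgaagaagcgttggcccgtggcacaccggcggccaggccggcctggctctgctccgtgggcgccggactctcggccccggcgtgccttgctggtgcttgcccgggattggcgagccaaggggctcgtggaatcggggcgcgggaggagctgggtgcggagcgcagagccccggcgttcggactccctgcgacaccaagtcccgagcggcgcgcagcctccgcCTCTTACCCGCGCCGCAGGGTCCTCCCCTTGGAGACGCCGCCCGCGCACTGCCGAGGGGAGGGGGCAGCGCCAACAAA
Col4a2: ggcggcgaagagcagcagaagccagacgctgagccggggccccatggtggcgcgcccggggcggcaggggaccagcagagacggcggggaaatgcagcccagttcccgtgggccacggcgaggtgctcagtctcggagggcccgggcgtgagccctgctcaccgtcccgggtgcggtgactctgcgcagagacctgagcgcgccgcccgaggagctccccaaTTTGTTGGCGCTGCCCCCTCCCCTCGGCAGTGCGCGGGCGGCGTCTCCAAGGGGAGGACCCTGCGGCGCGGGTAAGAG
The GATAA core that GATA factors bind was searched on both strands (GATAA or TTATC) and occurs in 25.4% of 32851 RefSeq promoter windows of this length. Among genes called higher, it occurred in 0 of 8 windows of the basement membrane list, in 0 of 1 of the primitive endoderm factors and in 1 of 6 of the surface and secreted list. That window belongs to Dab2 (chr15:6299539-6299838, plus strand) and is shown with its 2 matches in capitals.
Dab2: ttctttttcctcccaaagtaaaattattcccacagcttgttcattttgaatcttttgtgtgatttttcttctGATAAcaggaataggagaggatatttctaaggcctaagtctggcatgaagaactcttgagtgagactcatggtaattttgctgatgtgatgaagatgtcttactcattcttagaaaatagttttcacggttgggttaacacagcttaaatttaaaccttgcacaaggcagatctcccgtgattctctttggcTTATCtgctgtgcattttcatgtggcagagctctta
A match is a description of these letters and no evidence of binding, and several risen genes had no window to search.

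Most of these risen genes were also called higher in IP14D-101 against the mean of the other 4 lines. Against the mean of R1, IP14D-1, IP20D-3 and IP36D-3, in which limma called 0.72% of all genes higher and 1.19% lower, Cubn differed by 4.98 ± 0.13, Gata6 by 3.11 ± 0.15, Lama1 by 2.17 ± 0.05 and Col4a1 by 2.18 ± 0.06. All 6 risen factors and receptors, all 4 risen surface and secreted genes and 6 of the 10 risen basement membrane genes were called in that contrast. Hspg2 is among these, although R1 (9.83 ± 0.04) was as high as IP14D-101 (9.75 ± 0.14). IP20D-3 was the next highest line for Lama1 (8.06 ± 0.05) and Sox7 (5.67 ± 0.39). ESC2 was called against the same 4 lines for 0 of the risen genes of these lists, with differences such as -0.41 ± 0.13 for Cubn and -0.46 ± 0.15 for Gata6. Summed over the 17 endoderm markers, intensity was 5383 to 5896 in IP14D-101 and 2132 to 2174 in ESC2, with 11 markers higher and 0 lower. In bulk RNA a few cells with high levels and many cells with low levels cannot be told apart. The 8 pluripotency markers summed to 27579 to 28064 in IP14D-101 and 19264 to 19860 in ESC2, so the endoderm rise came beside a pluripotent signal that was also higher.

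**Figure D2:**
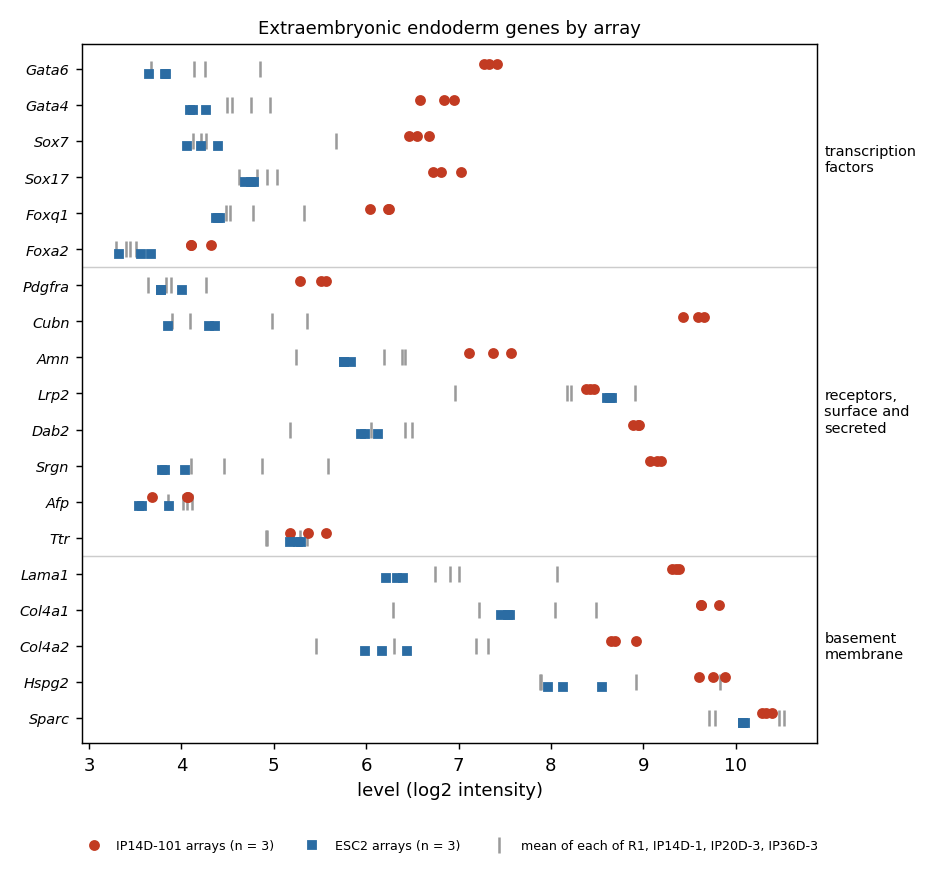
Level (log2 intensity) of extraembryonic endoderm genes in each array, with IP14D-101 as red circles, ESC2 as blue squares and the means of the other 4 lines as grey ticks. The 3 IP14D-101 arrays lie to the right of every other line for Gata6, Gata4, Sox17, Cubn, Dab2, Srgn and Lama1, while Afp, Ttr and Lrp2 do not separate the lines in this way.

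Pluripotency genes were more often called higher than lower in IP14D-101. Of 36 measured members of the core and naive list, 14 were higher and 2 (Manba and Rif1) lower, with a median of 0.37. The central factors themselves moved little: Pou5f1 was 12.59 ± 0.03 in IP14D-101 and 12.12 ± 0.17 in ESC2, Nanog 11.76 ± 0.06 in IP14D-101 and 11.27 ± 0.07 in ESC2, and Sox2 11.95 ± 0.03 in IP14D-101 and 12.00 ± 0.08 in ESC2, none of them called. Dppa3 (Stella), a maternal-effect gene of naive and germ cells, was 8.40 ± 0.02 in IP14D-101 and 9.22 ± 0.07 in ESC2, also without a call. Esrrb, an orphan nuclear receptor of the naive network, read 10.21, 10.31 and 10.49 in IP14D-101 and 8.23, 8.07 and 8.16 in ESC2 (difference 2.19 ± 0.10, adjusted p = 1.77e-11). Zfp42 (Rex1), a marker lost on priming, read 11.04, 11.05 and 10.94 in IP14D-101 and 9.08, 9.09 and 9.16 in ESC2 (difference 1.90 ± 0.07, adjusted p = 1.52e-12). For both genes every IP14D-101 array was above every ESC2 array, and 62.9% of all genes likewise had no overlap between the lines. Mybl2, Jam2, Utf1, Prdm14, Klf4, Klf2, Tcl1, Tbx3, Fgf4 and Nr0b1 also rose, by 1.10 (Nr0b1) to 1.66 (Mybl2). Klf5 differed by 1.58 ± 0.08, but neither of its 2 other probe sets shared the direction, and its mean over probe sets (0.43) was not called.

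For 10 of the 14 risen pluripotency genes, ESC2 was called lower than the mean of the other 4 lines while IP14D-101 was not called. ESC2 against those lines gave 1.28% of all genes higher and 1.58% lower. Against their mean, Esrrb differed in ESC2 by -1.6 ± 0.08 (adjusted p = 1.34e-10) and in IP14D-101 by 0.58 ± 0.08, which was not called. Jam2, Mybl2, Klf5 and Tfcp2l1 are among the 10. ESC2 was below every other line for Mybl2, Klf5 and Tfcp2l1, but for Jam2 IP36D-3 (8.30 ± 0.02) matched ESC2 (8.30 ± 0.04). Zfp42 was the other way round, at 1.10 ± 0.06 in IP14D-101, called higher, and -0.80 ± 0.06 in ESC2, not called, although R1 (11.24) was above IP14D-101 (11.01). The AAGGTCA core that ESRRB binds was also searched on both strands (AAGGTCA or TGACCTT), and it was found in 0 of 11 windows of the risen pluripotency genes and in 4.72% of all windows.

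In the LIF and STAT3 list 8 of 21 genes were higher, 0 lower, and the median was 0.69. Against the other 4 lines, IP14D-101 alone was called for 2 of the 8, ESC2 alone for 3 and neither for 3. The receptor chain Lifr was not called (0.06 ± 0.10, adjusted p = 0.623), and the feedback inhibitor Socs3, at 0.73 ± 0.14, was not called. Stat3 itself differed by 1.05 ± 0.08, just past the threshold, and was called neither with its probe sets averaged (0.21) nor without the third IP14D-101 array (0.98). Among the targets, Junb differed by 1.57 ± 0.12, Tfcp2l1 by 1.51 ± 0.09, Klf4 by 1.38 ± 0.07 and the homeobox gene Gbx2 by 1.28 ± 0.15. Klf5, whose probe sets disagreed, is also among the 8. R1 was above IP14D-101 for Junb (8.89 against 7.86), and IP20D-3 for Tfcp2l1 (10.01 against 9.58). Gbx2 was 9.58 ± 0.08 in IP14D-101 and 8.30 ± 0.12 in ESC2, above all 4 other lines (5.63 to 8.51), and was called higher in IP14D-101 against them.

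Genes of the primed epiblast were lower, with 8 of 22 lower, 2 higher (Tead2 and Tcf15) and a median of -0.72. Fgf5, the standard marker of the primed state, read 3.85, 4.34 and 3.91 in IP14D-101 and 6.70, 7.18 and 6.72 in ESC2, a difference of -2.83 ± 0.21 (adjusted p = 3.60e-09). N-cadherin (Cdh2) read 5.08, 4.74 and 4.18 in IP14D-101 and 7.58, 7.33 and 7.30 in ESC2 (-2.74 ± 0.16, adjusted p = 2.60e-10). Both were near or under the array median in IP14D-101 and above it in every ESC2 array. The homeobox factor Otx2 and the POU factor Pou3f1 were 7.02 ± 0.16 and 7.77 ± 0.13 in IP14D-101, against 8.73 ± 0.23 and 9.50 ± 0.16 in ESC2. For Fgf5 and Cdh2, IP14D-101 was called lower (-1.18 ± 0.16 and -1.39 ± 0.13) and ESC2 higher (1.65 ± 0.16 and 1.35 ± 0.13) than the mean of the other 4 lines. Fgf5 was nonetheless as low in IP20D-3 (4.09 ± 0.39) as in IP14D-101, and IP36D-3 (6.425 ± 0.024) came near ESC2. For Otx2 and Pou3f1 ESC2 alone was called against that mean, although Otx2 in IP36D-3 (8.75 ± 0.09) was level with ESC2.

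Trophectoderm genes were also lower, with 7 of 24 lower, 1 higher and a median of -0.50. The kinase gene Nrk was 5.30 ± 0.24 in IP14D-101 and 8.30 ± 0.14 in ESC2. The helix-loop-helix inhibitor Id2 differed by -1.63 ± 0.09 and the factor Ascl2 by -1.03. Among the keratins of simple epithelia, Krt8 was 8.18 ± 0.17 in IP14D-101 and 9.76 ± 0.12 in ESC2, and Krt18 and Krt19 differed by -1.25 and -1.11. The factor Cdx2 differed by -1.30 ± 0.11 without its other probe set. The rise was Peg10, a retrotransposon-derived imprinted gene of the placenta, which read 6.50, 6.79 and 6.30 in IP14D-101 and 3.89, 3.69 and 3.98 in ESC2. R1 was higher for Peg10 (8.085), and against the other 4 lines ESC2 was called lower while IP14D-101 was not called. Of the 7 falls, IP14D-101 alone was called against those lines for 4, both for 1 and neither for 2. For Krt8 IP20D-3 (7.955) was slightly below IP14D-101. The 6 trophoblast markers summed to 209 to 242 in IP14D-101 and 284 to 304 in ESC2, and Elf5, Tpbpa and Krt7 were under 5 in both lines.

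Targets of SRF and YAP, which include the actin-binding genes of contractile cells, gave the lowest median of any list, -0.93, with 14 of 29 lower and 0 higher. Annexin A1 (Anxa1), a membrane-binding protein, read 6.28, 6.26 and 6.17 in IP14D-101 and 9.03, 9.09 and 9.23 in ESC2, a difference of -2.88 ± 0.19, although its other probe set did not share the direction. The myosin light chain Myl9 differed by -1.75 ± 0.11, Anxa3 by -1.93 ± 0.21, transgelin (Tagln) by -1.6 ± 0.12 and thrombospondin 1 (Thbs1) by -1.94 ± 0.13. The standard YAP targets Ccn1, Ankrd1 and Ccn2 differed by -1.43, -1.38 and -1.19. Smooth muscle actin Acta2 and calponin Cnn1 differed by -1.22 and -1.46, Acta2 without either of its other probe sets. In the fibroblast list 8 of 34 were lower, 1 higher (Loxl1), and the median was -0.13. Against the mean of the 4 other lines, ESC2 alone was called (higher) for 6 of these 8 fibroblast falls, and IP14D-101 alone (lower) for 2. The falls were Lox (-2.36 ± 0.17), Cdh11 (-2.34 ± 0.15), Thbs1, Col5a2, Tagln, Col1a2, Cnn1 and Acta2. ESC2 was the highest line for Cdh11 and Col1a2, but IP14D-1 was at least as high for Lox (6.97 against 6.81 in ESC2), Col5a2 (6.515 against 6.454) and Thbs1 (7.71 against 7.64). For Tagln IP20D-3 (7.87) was below IP14D-101 (8.55). The same held for Myl9 (6.29 against 6.71) and Thbs1 (4.26 against 5.70). IP20D-3 was level with IP14D-101 for Anxa1 (6.145 against 6.239) and Anxa3 (6.564 against 6.576). Of the 14 contractile falls, IP14D-101 alone was called against the other 4 lines for 4, ESC2 alone for 3, both for 1 and neither for 6.

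Of the matrix genes that define fibroblasts, some were near the array median in both lines and others were above it in ESC2. Col1a1 was 4.88 ± 0.18 in IP14D-101 and 5.07 ± 0.08 in ESC2, and Col3a1 3.69 ± 0.28 in IP14D-101 and 3.95 ± 0.19 in ESC2, neither called. Of the 12 fibroblast markers, 11 were under 5 in IP14D-101 and 7 in ESC2, the exception in IP14D-101 being vimentin, which pluripotent cells also express (10.46 ± 0.11 in IP14D-101 and 10.35 ± 0.14 in ESC2). Col1a2 and Lox were the 2 called, both lower: Col1a2 was 4.96 ± 0.19 in IP14D-101 and 6.51 ± 0.22 in ESC2, and Lox 4.45 ± 0.24 in IP14D-101 and 6.81 ± 0.44 in ESC2. The 12 markers summed to 1540 to 1785 in IP14D-101 and 1572 to 1861 in ESC2, ranges that overlap, and most of each sum was vimentin. Without it, as computed after these sums were seen, the other 11 summed to 221 to 259 in IP14D-101 and 378 to 429 in ESC2, ranges that do not overlap. The 34 list members summed to 4792 to 5287 in IP14D-101 and 5128 to 5835 in ESC2. The part of feeder RNA in the contractile falls was not tested.

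**Figure D3:**
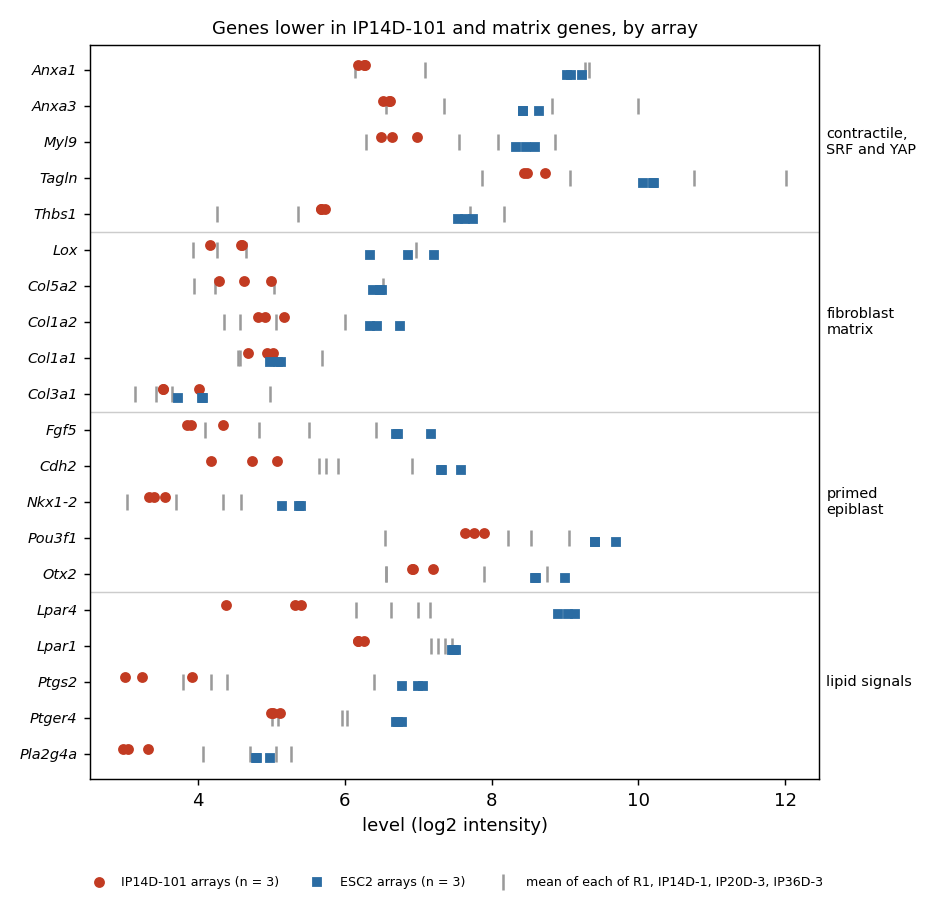
Level (log2 intensity) by array of contractile, fibroblast matrix, primed epiblast and lipid-signal genes, with IP14D-101 as red circles, ESC2 as blue squares and the means of the other 4 lines as grey ticks. All genes shown but Col1a1 and Col3a1 have the 3 IP14D-101 arrays left of the 3 ESC2 arrays. Over all genes, 62.9% had no overlap between the lines in either direction.

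Genes of prostaglandin synthesis and of lysophospholipid receptors gave 7 of 26 lower and 0 higher, with a median of 0.10. Lpar4, an X-linked receptor for lysophosphatidic acid, read 5.32, 5.40 and 4.38 in IP14D-101 and 8.90, 9.04 and 9.14 in ESC2 (-3.99 ± 0.19, adjusted p = 2.50e-11). Ptgs2 (COX-2), the inducible prostaglandin synthase, read 3.0, 3.23 and 3.92 in IP14D-101 and 6.78, 7.0 and 7.07 in ESC2 (-3.57 ± 0.20, adjusted p = 1.65e-10). No overlap of arrays between the lines was a condition for naming both genes among the largest falls, and 62.9% of all genes met it. The phospholipase Pla2g4a that releases the substrate of Ptgs2 differed by -1.74 ± 0.15, and the prostaglandin E2 receptors Ptger4 and Ptger2 by -1.69 ± 0.11 and -1.10. Lpar1 and Lpar6 differed by -1.28 ± 0.07 and -1.13. For Lpar1, IP14D-101 lay under all other lines (7.17 to 7.46) and ESC2, at 7.49 ± 0.03, just above them. Ptger4 in IP14D-101 (5.05) was level with IP14D-1 (5.09) and IP20D-3 (5.01), and Ptgs2 was also low in IP36D-3 (3.80). ESC2 was the highest line for Ptger4 and Ptgs2. Of the 7 falls, IP14D-101 alone was called against the other 4 lines for 2, ESC2 alone for 2, both for 2 and neither for 1.

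FGF and ERK genes were split, with 4 of 24 higher, 4 lower and a median of 0.21. Fgf4, the ligand that ES cells secrete, differed by 1.17 ± 0.09, and the ERK-induced factor Etv4 and feedback inhibitor Spry4 by 1.80 ± 0.11 and 1.59 ± 0.13. Averaging probe sets took Etv4 to 0.93 and Spry4 to 0.92, both under the threshold. The ERK phosphatases Dusp4 and Dusp6 went the other way, at -1.32 and -1.01. Dusp4 was 6.38 ± 0.10 in IP14D-101 and 7.69 ± 0.07 in ESC2, with the other lines at 7.59 to 8.13, so that IP14D-101 stood apart (-1.45 ± 0.08, adjusted p = 2.23e-10).

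In the Nodal, activin and BMP list 4 of 35 were higher, 4 lower, and the median was -0.07. Id2 and Id3, helix-loop-helix inhibitors that BMP induces, read 7.86, 7.71 and 7.70 and 8.0, 7.63 and 8.01 in IP14D-101, against 9.39, 9.33 and 9.43 and 9.44, 9.35 and 9.48 in ESC2. IP14D-101 was called lower than the other 4 lines for both (-1.24 ± 0.07 and -1.75 ± 0.11), and ESC2 was not called. Id1, of the same family, was 9.77 ± 0.10 in IP14D-101 and 9.84 ± 0.15 in ESC2, without a call. Bmp4, the ligand, differed by -0.96, short of the threshold. On the activin side, the inhibitor Fst was 4.89 ± 0.22 in IP14D-101 and 7.76 ± 0.17 in ESC2, the receptor Acvr2b differed by 1.37 ± 0.08, the Nodal antagonist Lefty1 by 1.26 ± 0.13 and the subunit genes Inhbb and Inhba by 1.27 and -1.14. Nodal differed by -0.11 ± 0.09 and was not called. The inhibitory Smad7 differed by 1.94 ± 0.08 without its other probe set, and its probe set mean (0.95) was not called, while that of Id2 (-0.90) was not called either.

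Of 43 Wnt genes 4 were higher and 4 lower, with a median of 0.13. The Wnt receptor Ror1 was 4.34 ± 0.28 in IP14D-101 and 7.06 ± 0.20 in ESC2, where ESC2 stood above all other lines (4.23 to 5.80). The direct Wnt target Sp5 was 5.64 ± 0.38 in IP14D-101 and 7.82 ± 0.13 in ESC2, and the co-receptor Lrp5 was 5.88 ± 0.30 in IP14D-101 and 3.51 ± 0.07 in ESC2. Wls, which carries Wnt proteins to the cell surface, was among the 15 largest falls: it read 4.71, 4.35 and 4.40 in IP14D-101 and 7.17, 7.24 and 7.32 in ESC2, with the other lines at 6.59 to 7.27. IP14D-101 stood apart for Wls at -2.47 ± 0.09 (adjusted p = 1.58e-12), and its 3 other probe sets shared the direction.

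Imprinted genes, which are expressed from the copy of one parent, were more often called lower than higher in IP14D-101. Outside the Dlk1-Dio3 region, 11 of 42 were lower and 1, Peg10, higher, with a median of -0.15. Grb10, an adaptor that restrains growth factor signalling, read 7.97, 8.01 and 7.99 in IP14D-101 and 10.37, 10.07 and 10.33 in ESC2, 4.81-fold lower in IP14D-101 (adjusted p = 1.11e-12). The other 4 lines had 10.68 to 11.71, and IP14D-101 differed from their mean by -3.20 ± 0.07, with both other probe sets in the same direction. Peg3, a zinc-finger gene expressed from the paternal copy, read 9.01, 8.84 and 8.63 in IP14D-101 and 11.74, 11.54 and 11.62 in ESC2, and 3 of its 4 other probe sets shared the fall. Both lines stood apart for Peg3, with IP14D-101 called lower (-1.6 ± 0.07) and ESC2 called higher (1.21 ± 0.07) than the rest. Plagl1 and Sfmbt2 differed by -1.72 ± 0.14 and -1.73 ± 0.10, Plagl1 without a call when probe sets were averaged (-0.70). The other falls were Ube3a, Ndn, Kcnq1ot1, Magel2, Impact, Atp10a and Ascl2, at -1.49 to -1.03.

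In the Dlk1-Dio3 region the noncoding Meg3 read 9.87, 10.11 and 9.14 in IP14D-101 and 11.30, 11.33 and 11.39 in ESC2, with the third IP14D-101 array the lowest. Its 10 other probe sets shared the direction. Rian read 6.20, 6.17 and 5.99 in IP14D-101 and 7.53, 7.70 and 7.52 in ESC2, and Mirg was not called (-0.16 ± 0.17, adjusted p = 0.439). Meg3 in IP14D-101 was far above the 5.23 ± 0.11 of IP20D-3 and the 5.90 ± 0.13 of IP36D-3, and close to R1 at 10.19 ± 0.11. Dlk1, the protein-coding gene expressed from the paternal copy, differed by 1.19 ± 0.13, but its other probe set did not share the rise and the offset of 32 ended the call (0.86).

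Zfp57, the zinc-finger protein that protects methylation of imprinted regions, was the fourth largest rise. It read 9.62, 9.54 and 9.55 in IP14D-101 and 6.25, 6.21 and 6.31 in ESC2, 9.96-fold apart (adjusted p = 1.09e-13). The other 4 lines had 7.03 to 8.86, so IP14D-101 was the highest and ESC2 the lowest of the 6, each called against the other 4 (1.65 ± 0.07 and -1.67 ± 0.07). Zfp445, which acts on the same regions, went the other way at -1.40 ± 0.17, with the third IP14D-101 array (8.48) below the other two. Of 22 genes of imprint protection and DNA methylation, 3 were higher and 1 lower, with a median of 0.14. The de novo methyltransferases Dnmt3a and Dnmt3b differed by 0.65 ± 0.12 and -0.88 ± 0.07 and Dnmt3l by 0.02 ± 0.08, none called. The maintenance enzyme Dnmt1, at 1.04 ± 0.07, lost its call under several settings, among them averaged probe sets (0.62) and the third IP14D-101 array left out (0.99).

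**Figure D4:**
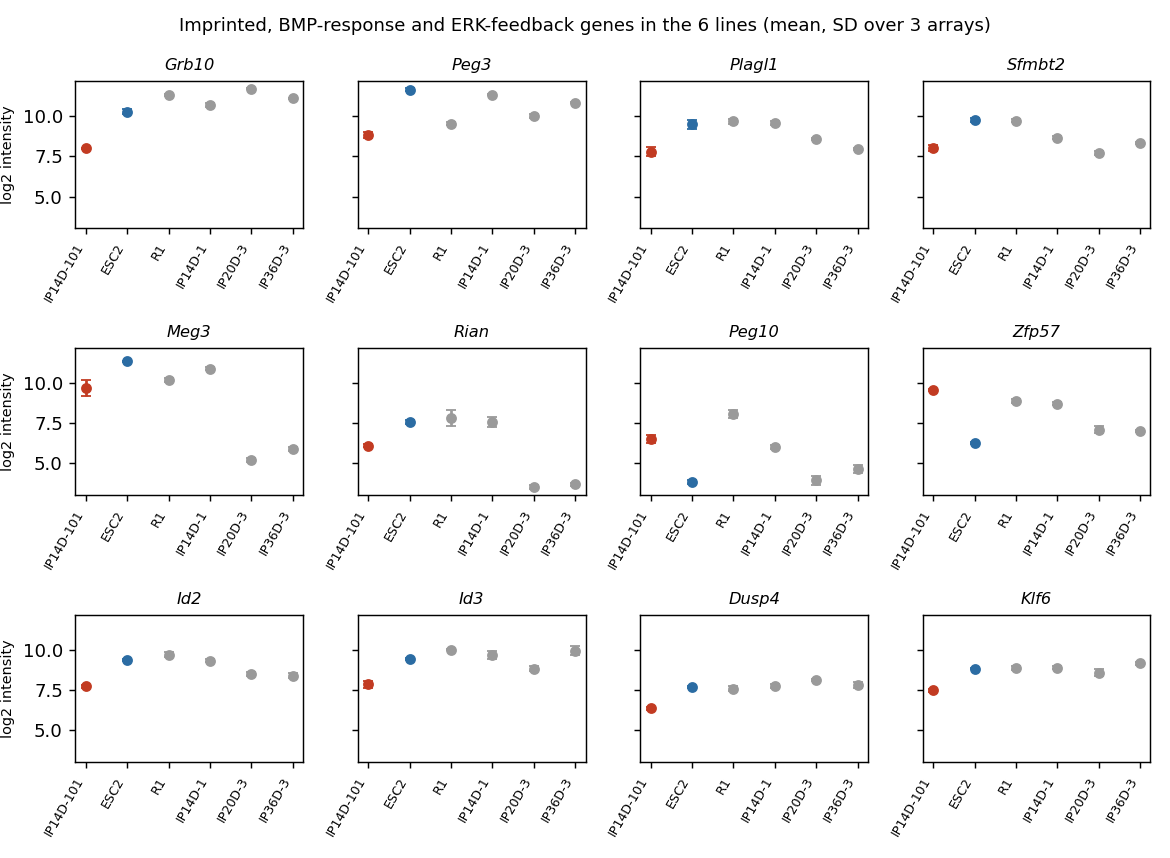
Mean level (log2 intensity) of 12 imprinted, imprint-protecting, BMP-response and ERK-feedback genes in the 6 lines, with SD over 3 arrays, IP14D-101 in red, ESC2 in blue and the other lines in grey. Grb10, Id2, Id3, Dusp4 and Klf6 are lowest in IP14D-101, and Zfp57 is highest there and lowest in ESC2.

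Polycomb genes gave 4 of 26 higher and 0 lower, with a median of 0.22. Epop, which tunes the activity of Polycomb complex PRC2, was 10.65 ± 0.05 in IP14D-101 and 8.47 ± 0.06 in ESC2, with ESC2 called lower than the other 4 lines. Pcgf2, Ring1 and Pcgf1, subunits of PRC1, differed by 1.90 ± 0.11, 1.52 ± 0.11 and 1.25 ± 0.10. The PRC2 core was not called: the catalytic subunit Ezh2 differed by 0.47, Eed by -0.38 and Suz12 by -0.34. Bmi1, the relative of Pcgf2 in the same PRC1 position, differed by -0.95, short of the threshold. With an offset of 32, Pcgf1 (0.93) and Ring1 (0.99) were no longer called.

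Among the cell-cycle genes 5 of 37 were higher and 1 lower, with a median of 0.26. E2f1, the activator of S-phase genes, was 8.63 ± 0.10 in IP14D-101 and 6.58 ± 0.14 in ESC2 and was called higher in IP14D-101 than in the other 4 lines (1.26 ± 0.07). E2f4, cyclin D3 (Ccnd3), Plk1 and E2f2 rose, and cyclin E2 (Ccne2) fell by 1.51. Cyclin D3 was not called with its probe sets averaged (0.73).

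Glycolysis and hypoxia genes gave 7 of 34 higher and 0 lower, with a median of 0.53. Slc16a3 (MCT4), the transporter that exports lactate, read 9.15, 9.36 and 9.52 in IP14D-101 and 6.56, 6.54 and 6.61 in ESC2 (2.78 ± 0.15, adjusted p = 8.88e-11). The enzymes Pfkl and Hk1 differed by 2.35 ± 0.09 and 1.5 ± 0.12, Pfkl with 1 of its 2 other probe sets. The hypoxia-induced Bnip3 and Vegfa differed by 1.25 ± 0.10 and 1.24, and Aldoc and Eno2 by 1.24 ± 0.11 and 1.15. Aldoc was not called with its probe sets averaged (0.66).

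Endocytosis and lysosome genes gave 6 of 38 higher and 0 lower, with a median of 0.42, and Cubn and Dab2 are also members of this list. Ap2a1, a subunit of the clathrin adaptor AP-2, was 8.93 ± 0.26 in IP14D-101 and 6.33 ± 0.09 in ESC2 (2.60 ± 0.10, adjusted p = 2.40e-12). The lysosomal sialidase Neu1, the lipoprotein receptor Scarb1 and the beta-galactosidase Glb1 differed by 1.82 ± 0.09, 1.5 ± 0.09 and 1.47. Neu1 (0.86) and Scarb1 (0.62) were not called with probe sets averaged. For both, ESC2 was called lower than the other 4 lines and IP14D-101 was not called.

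Stress and amino acid supply genes gave 6 of 40 higher and 0 lower, with a median of 0.36. Chac1, a stress-induced enzyme that degrades glutathione, read 7.31, 7.07 and 7.63 in IP14D-101 and 5.68, 5.62 and 5.60 in ESC2, and Nupr1, a stress-induced nuclear protein, 7.39, 7.22 and 7.19 in IP14D-101 and 5.71, 5.42 and 5.83 in ESC2. Both were called lower in IP14D-101 than the mean of the other 4 lines, and ESC2 was called lower too, with the lowest means of the panel. R1 was below IP14D-101 for Nupr1 (6.39 ± 0.09) and close to it for Chac1 (7.65 ± 0.25). The iPS lines IP14D-1, IP20D-3 and IP36D-3 were higher, at 9.42 to 10.97 for Chac1 and 8.05 to 11.33 for Nupr1. Ddit3, the transcription factor upstream of Chac1, was not called (-0.20 ± 0.23, adjusted p = 0.482). Of 28 genes of cholesterol and fatty acid synthesis 3 were higher, led by the regulator Srebf2 at 1.52 ± 0.10, and 0 lower. Of 14 heat shock genes 3 were higher and Hspa1b, the inducible Hsp70, was lower (-1.22 ± 0.18), although not with its probe sets averaged (-0.79).

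Germline, retinoid, junction, interferon, p53 and immediate-early lists had calls in both directions. The retinoid-induced meiotic gene Stra8 was 9.02 ± 0.07 in IP14D-101 and 7.03 ± 0.46 in ESC2, above every other line (6.27 to 8.25), and the retinoid receptors Rara and Rarg differed by 1.77 ± 0.11 and 1.19 ± 0.11. The receptor kinase Kit differed by 1.86 ± 0.12, and the gene of its ligand, Kitl, by -2.28 ± 0.24 with 2 of its 3 other probe sets, and without a call when they were averaged (-0.81). Among junction genes desmoplakin (Dsp) differed by -2.06 ± 0.13 and Marveld3 by -2.10 ± 0.10, whereas the tight junction genes Tjp3 and Cldn4 differed by 1.82 ± 0.12 and 1.75. Klf6, an immediate-early zinc-finger gene, was 7.49 ± 0.09 in IP14D-101 and 8.85 ± 0.03 in ESC2, with the other lines at 8.58 to 9.16 and its 4 other probe sets in the same direction. Irgm1, an interferon-induced GTPase, was 5.56 ± 0.35 in IP14D-101 and 8.19 ± 0.17 in ESC2, and Stat2 6.29 ± 0.09 in IP14D-101 and 4.39 ± 0.29 in ESC2.

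Chromosome X had a larger share of falls than any autosome, and the Y chromosome had 2 falls among 9 measured genes. Of the 617 measured X genes, 72 (11.7%) were lower and 12 (1.94%) higher in IP14D-101, against 1.81% (chromosome 6) to 6.70% (chromosome 13) lower on the autosomes. The median difference of X genes was -0.01, against 0.15 over all genes, and these shares were not tested against each other. The X-linked genes Mid1, Lpar4, Nrk and Kctd12b were among the 15 largest falls. Mid1, a microtubule-associated ubiquitin ligase, read 4.77, 5.02 and 4.64 in IP14D-101 and 8.95, 9.01 and 9.19 in ESC2, but neither of its other probe sets shared the fall. R1 was as low, at 4.18 ± 0.28, and the B6 x D2 lines IP14D-1, IP20D-3 and IP36D-3 were at 8.62 to 9.46. Kctd12b read 3.69, 3.78 and 3.55 in IP14D-101 and 6.42, 6.74 and 6.67 in ESC2, with its other probe set in the same direction and the other lines at 5.84 to 6.53. The reproductive homeobox gene Rhox5 was 9.04 ± 0.10 in IP14D-101 and 11.09 ± 0.01 in ESC2, and the noncoding Ftx of the X inactivation centre 4.75 ± 0.49 in IP14D-101 and 6.84 ± 0.20 in ESC2. Xist, the RNA that coats the inactive X, was 6.70 ± 0.50 in IP14D-101 and 6.54 ± 0.12 in ESC2 and was not called. The Y-linked Eif2s3y read 7.40, 7.42 and 6.97 in IP14D-101 and 9.23, 9.44 and 9.39 in ESC2, and Uty 5.03, 5.56 and 4.45 in IP14D-101 and 7.33, 7.54 and 7.76 in ESC2. Both Y-linked genes were thus lower in IP14D-101, and the third array of that line was the lowest for both.

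**Figure D5:**
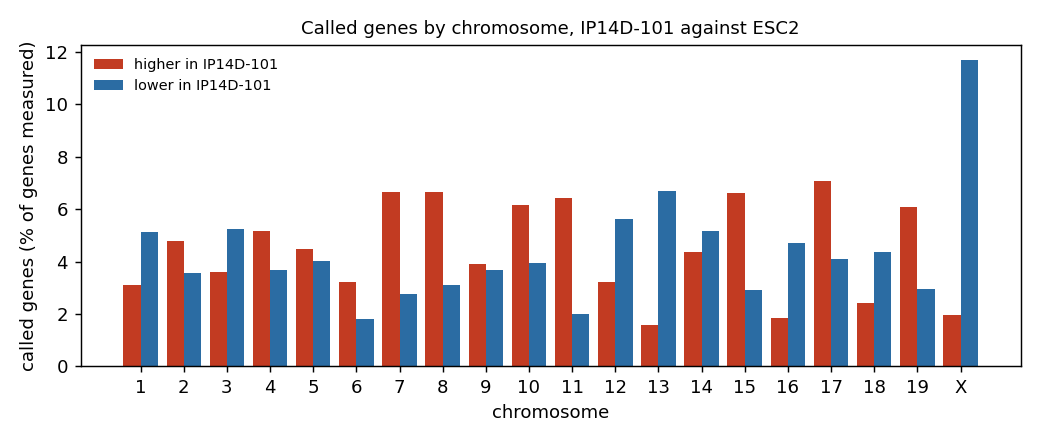
Share of measured genes on each chromosome, in percent, that were called higher (red) or lower (blue) in IP14D-101 against ESC2. The lower share on chromosome X is 11.7%, against at most 6.70% on the autosomes.

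Falls were also more frequent among long genes. When genes were divided into 5 equal classes by genomic length, the share lower in IP14D-101 was 2.34%, 2.73%, 3.53%, 5.29% and 6.37% from the shortest class to the longest, while the share higher was 4.27%, 5.37%, 5.21%, 4.74% and 3.80%. On chromosome X the share lower was 5.41%, 10.3%, 5.56%, 19% and 18% in the same classes, above the autosomes in each (2.21%, 2.50%, 3.47%, 4.79% and 5.90%). Gene length moves with the share of falls beside the actin and 18S controls, and its part in single falls was not tested.

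The remaining genes among the 15 largest changes each way had no list in common. Anpep, an aminopeptidase of absorptive epithelia, was 7.13 ± 0.46 in IP14D-101 and 4.29 ± 0.42 in ESC2, and the fibronectin receptor subunit Itga5 8.32 ± 0.11 in IP14D-101 and 5.55 ± 0.20 in ESC2, with 1 of the 3 other Itga5 probe sets in that direction. Scaf1 and Zfp395 differed by 2.78 ± 0.12 and 2.71 ± 0.10, and both were highest in IP14D-101 and lowest in ESC2 among the 6 lines. The serine protease Prss23 read 4.40, 3.63 and 4.18 in IP14D-101 and 7.58, 7.68 and 8.07 in ESC2, and the neurofilament gene Nefm 3.97, 4.11 and 4.33 in IP14D-101 and 6.77, 6.97 and 6.94 in ESC2. Nefm was 6.30 to 7.62 in the other 4 lines, so IP14D-101 alone was low. Taf15, Ankrd31 and Btla fell by 3.19, 3.27 and 3.05, all to means under 5, and for each IP14D-101 was called lower and ESC2 called higher than the mean of the other 4 lines. IP14D-101 was not the lowest line for any of them: R1 was lower for Taf15 (3.36) and Ankrd31 (4.43), and IP20D-3 for Btla (3.07). For Taf15 ESC2 (7.29) was not the highest line either, as IP20D-3 had 7.45, and the mean of the other 4 lines includes the low R1. That mean also includes the low R1 for Ankrd31, where ESC2 (7.81) was the highest line and IP14D-1 (7.31) the next.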

How the data were processed

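The deposited values are probe set intensities on a linear scale, which the authors made with RMA. The method is named in the design text and, per the submitters' processing notes, in the list of tools, without a version. They were taken to log2 without an offset. Of 45101 probe sets, 64 controls were left out, 34945 had 1 symbol in the platform annotation, 932 several and 9160 none, and 34741 were found in a RefSeq table of GRCm38.p6, with 0 symbols changed. For each of the 18193 genes, the probe set brightest on average over the 18 arrays was kept.

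The model was fitted in limma 3.58.1 (R 4.3.3) to all 18 arrays, with 1 mean for each line, 12 residual degrees of freedom, moderated statistics and Benjamini-Hochberg adjustment over all genes. The contrast was IP14D-101 minus ESC2, and further contrasts set each line against the mean of the 4 other lines. The step was tested on simulated data: with 200 genes changed by a log2 of 1.5 or of 3, this contrast recovered 100% with 0 false calls at either size. The simulated noise was independent between arrays and both changes lay above the call threshold, so this does not measure false calls in the real data. Precision is limited by having 3 arrays a line. Replicate numbers did not pair the arrays: deviations of arrays with the same number correlated at -0.16, 0.02 and -0.07.

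The comparison, the 35 gene lists and the rule for named genes were chosen with earlier results of these data known. The rule took the 15 largest rises and falls among called genes with a mean of at least 6 in the higher line and no overlap of arrays, at most 5 called members from any list, and a set of named regulators and markers; other called members are named where a list is given in full. Promoter sequences are RefSeq's (GRCm38.p6). Tables and plots were made with Python 3.11.15, pandas 2.3.3, numpy 2.4.6 and matplotlib 3.10.9. Alternatives covered the arrays in the fit, probe set choice, a filter on dim genes, an offset, scaling, the call rule, array weights, a replicate block and leaving out each array.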

Additional observations from a re-analysis of the deposited data

How the results depend on the processing

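The count of 1588 called genes, 849 higher and 739 lower, moved by more than 1.5 times under some settings. Testing every probe set on its own called 3323, 1447 higher and 1876 lower. An offset of 32 before log2 called 829, 424 higher and 405 lower. limma's treat test of a log2 difference over 0.5 called 2663, 1536 higher and 1127 lower, and an adjusted p with no minimum difference called 10144, 6354 higher and 3790 lower. Leaving out each array in turn gave 1342 to 1747 calls, 755 to 948 higher and 587 to 848 lower, with the lowest counts without the third IP14D-101 array. The share of calls that were higher was 53.5%; it was 36% after centring on the median difference of all genes, 43.5% for single probe sets and 62.6% with no minimum difference. With equal array medians 721 were higher and 859 lower. Among the 202 named genes, none of those called in the main setting reversed direction in any setting that could test it. Named genes without a call were not checked for direction. Averaging the probe sets of a gene ended 31 of their calls, the offset 26, centring 6, equal array medians 4 and every other setting at most 3. A fit with the replicate number as a block called the same numbers, 849 higher and 739 lower, and ended the call of 0 named genes; the numbers do not pair the arrays. Over all genes the adjusted p was under 0.05 in 10144 and the unadjusted p in 11114. Of 522 called genes with another probe set at a mean of at least 6, all such probe sets shared the direction in 470 and none in 29. For dim genes, a difference that starts or ends under the array median is uncertain in size. Promoter base composition was not checked, and 79.4% of genes had a promoter window.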

Other observations

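Some gene groups outside the lineages above showed few calls. Of 32 Hox genes 1, Hoxa4, was higher and 1, Hoxb1, lower, and all but 2 of the 32 had a mean under 6 in both lines. Of 22 primitive streak and mesoderm genes, Pdgfra was higher and Cdx2 lower, with a median of 0.14, and 3 to 5 were lower under equal array medians or centring. In the neuroectoderm list, 2 of 24 were higher and 2 lower. Olig2, an oligodendrocyte and motor neuron factor, was 8.22 ± 0.18 in IP14D-101 and 7.17 ± 0.10 in ESC2 (SD, n = 3 each), and IP14D-101 had the highest mean of the 6 lines, with R1 the lowest at 3.10. Its difference of 1.05 ± 0.13 was called in the main setting but not without the third IP14D-101 array (0.96).

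Among 35 genes of glutathione and oxidative defence, 3 were higher and 1 lower. Gstp1, a glutathione transferase, was 11.78 ± 0.09 in IP14D-101 and 10.26 ± 0.03 in ESC2, and the peroxidase Gpx3 was 8.82 ± 0.04 in IP14D-101 and 7.47 ± 0.04 in ESC2. Of 24 p53 targets and cell-cycle inhibitors, 3 were higher and 4 lower: the apoptosis gene Bbc3 differed by 1.22 ± 0.08 and the kinase Plk2 by -1.75 ± 0.13, although the other Plk2 probe set did not share the fall. Of 9 measured genes of the two-cell stage, Usp17la, Arg2 and Tcstv1 were lower, at -2.43 ± 0.15, -1.44 ± 0.11 and -1.09 ± 0.17, and all 3 had means under 5 in IP14D-101.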
